A study of Mus musculus with 4 samples.

Results

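Ligands and receptors of fibroblast growth factor (FGF) signalling were followed in mouse haploid embryonic stem cells (haESCs). The 10 genes are among the 23235 gene symbols measured and were taken by symbol, as 6 ligands (Fgf4, Fgf5, Fgf8, Fgf10, Fgf15 and Fgf17) and 4 receptors (Fgfr1, Fgfr2, Fgfr3 and Fgfr4). Each had a value above 0 in every sample. The RNA came from 4 samples, 2 of haESCs treated with DMSO, the solvent, and 2 of haESCs treated with RDF, a mixture of Repsox, which inhibits TGF-β signalling, DMH1, which inhibits BMP signalling, and Forskolin, which activates adenylyl cyclase. By the study's account the cells were HG165, 1 androgenetic line with a paternal genome only, established from C57BL/6 mice, and haESCs were in general grown in serum and LIF without an inhibitor of the ERK pathway. The sample labels describe culture on feeder fibroblasts, while the study's methods limit feeders to a few other assays, of which RNA-seq is not one. Concentrations of the 3 compounds are stated for a wider mixture and not for the sequenced samples, and the length of treatment and the share of cells that had become diploid in these samples are not given in the sources used here. Nothing says that the 2 samples of a condition came from separate cultures, so the p-values below measure the spread between these samples, which may be technical.

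FGF ligands are secreted proteins that bind receptor tyrosine kinases of the Fgfr family together with heparan sulfate, a sugar chain on the cell surface, and the receptors then signal through the adaptor Frs2, the Grb2-Sos complex and RAS to the kinases Mek and Erk. In mouse ES cells Fgf4 is the main ligand. It is under the control of Oct4 and Sox2, and its signal through Erk readies the cells to leave the naïve state and, in the embryo, drives inner cell mass cells to become primitive endoderm. Fgf5 is a marker of the epiblast after implantation, and Fgf8 and Fgf17 belong to 1 subfamily that acts in the primitive streak and in the patterning of the brain.

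Values are FPKM, fragment counts scaled by transcript length and by library size, so that levels of different genes may be set side by side. Of the 23235 symbols, 11733 averaged 1 FPKM or more and were tested with limma on log2(FPKM + 1), with Benjamini-Hochberg adjustment over all of them and a threshold of 0.05. A log2 fold change is the mean log2(FPKM + 1) of RDF minus that of DMSO and understates the change of genes near 1 FPKM. By this test 1561 genes (13.3%) rose and 972 (8.28%) fell, 21.6% in all. The summed FPKM was between 718064 and 764461 a sample, and the steps of the lowest values put the depth at between 9650000 and 12300000 fragments. Of these low values 42.1% to 46.2% came within 0.1 of whole fragments, where an even spread would give 20%, so the fragment numbers given for single genes are approximate. All 10 markers of ES cells passed the filter in these samples, with Pou5f1 (Oct4) at 1290 and 1220 FPKM in DMSO and 1030 and 939 FPKM in RDF.

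Among the members, the main ligand and 2 of the receptors were higher in RDF while 2 of the minor ligands were lower. Of the 8 members that passed the filter, Fgf4, Fgfr2 and Fgfr3 rose, Fgf15 and Fgf17 fell, and Fgf8, Fgfr1 and Fgfr4 did not pass the test. Thus 5 of 8 were called, or 62.5%, against 21.6% of all tested genes. Fgf5 and Fgf10 were below the filter. Both RDF samples lay above both DMSO samples in 3 of the 8 tested members, against 37.1% of all tested genes, and below them in 3, against 28.5%, so that the conditions lay apart in 6 of 8, against 65.5%. The filter was on the mean of the 4 samples, and Fgfr2 passed it only through its RDF values and Fgf8 and Fgf15 only through their DMSO values, so these counts describe the members and are not a test of the family. Without RDF replicate 1 and without RDF replicate 2, 0 members passed in limma's test, with 5 and 6 members at an unadjusted p under 0.05.

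**Figure D1:**
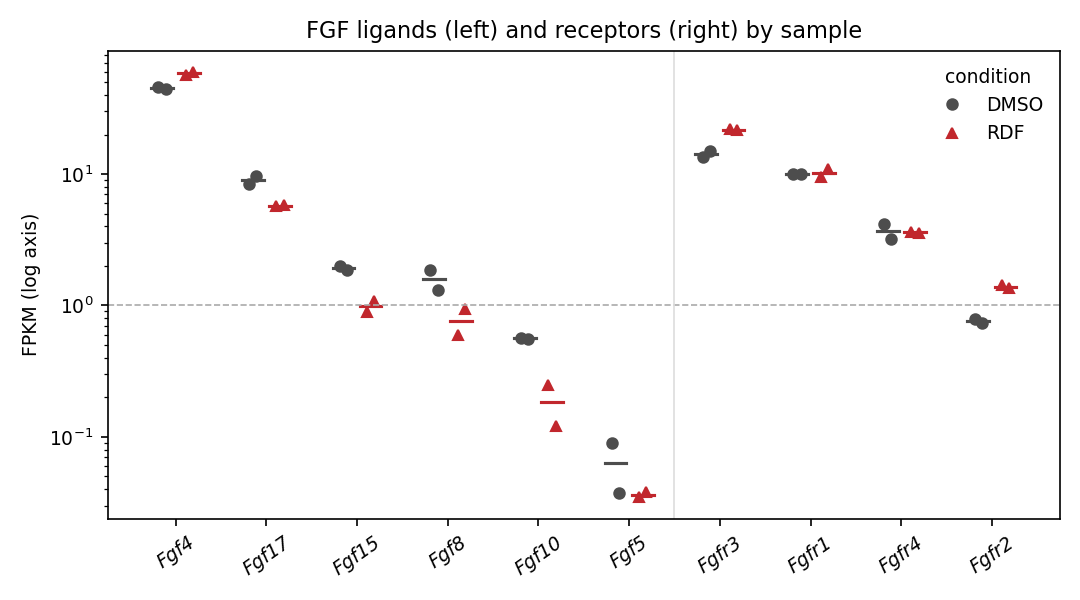
FPKM of the 10 FGF genes in each sample, on a log axis, with DMSO samples as circles, RDF samples as triangles, short lines for the mean of 2 samples and a dashed line at 1 FPKM. Fgf4 lies above all other members in every sample, and the samples of the conditions lie apart for Fgf4, Fgf17, Fgf15, Fgf8, Fgf10, Fgfr3 and Fgfr2.

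Proximal promoter windows of the genes that rose are shown first. RefSeq windows of 250 bases up to the transcription start, from the mouse build GRCm38.p6, were matched by symbol for 6 of the 10 members. The matched members were Fgf4, Fgf5, Fgf10, Fgfr2, Fgfr3 and Fgfr4, and no window was used for Fgf8, Fgf15, Fgf17 and Fgfr1. Each window was found once, without a mismatch, on its chromosome in NCBIM37 (mm9), the build of the data. Those of Fgf4 (chr7:152047041-152047290, plus strand), Fgfr3 (chr5:34064123-34064372, plus strand, the upstream one of its 2 starts) and Fgfr2 (chr7:137410323-137410572, minus strand) read as follows from 5′ to 3′, with capitals marking matches to the GC box GGGCGG on either strand.
Fgf4: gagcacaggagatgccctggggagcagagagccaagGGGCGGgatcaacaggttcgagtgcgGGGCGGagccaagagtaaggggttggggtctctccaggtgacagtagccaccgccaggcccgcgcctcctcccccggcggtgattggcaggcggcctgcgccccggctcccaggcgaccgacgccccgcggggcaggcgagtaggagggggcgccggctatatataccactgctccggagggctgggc
Fgfr3: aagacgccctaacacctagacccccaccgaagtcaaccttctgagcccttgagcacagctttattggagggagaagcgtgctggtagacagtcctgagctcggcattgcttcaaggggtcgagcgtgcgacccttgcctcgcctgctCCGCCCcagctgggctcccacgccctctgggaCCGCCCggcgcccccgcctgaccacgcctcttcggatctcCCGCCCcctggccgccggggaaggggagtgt
Fgfr2: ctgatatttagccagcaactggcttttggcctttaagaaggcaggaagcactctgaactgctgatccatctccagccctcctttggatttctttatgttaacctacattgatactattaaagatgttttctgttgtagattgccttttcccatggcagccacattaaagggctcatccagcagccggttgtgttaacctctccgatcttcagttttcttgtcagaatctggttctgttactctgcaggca
The window of Fgf4 had a GC content of 71.2% with 21 CpG dinucleotides, and that of Fgfr3 had 66.8% with 19. The window of Fgfr2 had 44.0% with 2 CpG dinucleotides, against medians of 52.4% and 6 over 32851 windows of the same length. It does not adjoin the Fgfr2 transcript used here for position, which starts at 137409759 on the minus strand, but lies upstream of it. The window thus belongs to another start of Fgfr2, and which start was used in these samples was not tested. The Fgf4 window held 2 GC boxes and the Fgfr3 window 3, as against the Fgfr2 window, in which these letters were not found, and 32.7% of all windows held at least 1. Matched members that were not called higher had GC-rich windows with GC boxes too. The window of Fgfr4 had 64.0% with 15 CpG dinucleotides and 2 GC boxes. Those of Fgf5 and Fgf10 had 70.8% and 61.2%, with 24 and 8 CpG dinucleotides and 1 GC box each. Neither the cAMP response element TGACGTCA (1.55% of all windows), nor its core TGACG, which lies within it (17.8%), nor the SMAD box CAGAC (42.2%) was found on either strand in any of the 7 windows of these 6 members. The absence says only that these letters are not in the windows.

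Fgf4 was the most abundant member in both conditions, above 84.4% of all tested genes by its mean. It lies on chromosome 7 from 152047291 to 152051148 on the plus strand of NCBIM37, with 1 annotated transcript of 3 exons. Its level was 45.9 and 44.3 FPKM in DMSO and 57.1 and 59.8 FPKM in RDF, with 1340 to 2130 estimated fragments behind each value. Both RDF samples were thus above both DMSO samples, by more than the replicates differed. The mean rose from 45.1 ± 1.14 to 58.5 ± 1.86 FPKM (SD, n = 2 each), a ratio of 1.3, with a log2 fold change of 0.37 ± 0.056 (SE, limma adjusted p = 0.00913). Without RDF replicate 1 the adjusted p was 0.0559, and without RDF replicate 2 it was 0.0755, each from a fit in which the lone RDF sample is taken to vary like the DMSO samples. Its known regulators Sox2 and Oct4 did not move together. Sox2 rose by 0.26 on the log2 scale (adjusted p = 0.0187) while Pou5f1 fell by 0.35 (adjusted p = 0.0261), both from limma.

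Fgf17, the ligand next to Fgf4 in level, fell. It lies on chromosome 14 from 71036012 to 71042075 on the minus strand and has 5 exons. Its values were 8.36 and 9.61 FPKM in DMSO and 5.69 and 5.8 FPKM in RDF, from 110 to 178 estimated fragments. The groups did not overlap, and the RDF samples were closer to each other than the DMSO samples were. The mean went from 8.98 ± 0.883 to 5.74 ± 0.077 FPKM (SD, n = 2 each), a ratio of 0.639, with a log2 fold change of -0.56 ± 0.091 (SE, limma adjusted p = 0.0106). Without RDF replicate 1 and without RDF replicate 2 its adjusted p was 0.0736 and 0.0746.

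Fgf15, the mouse counterpart of human FGF19 and an endocrine ligand that controls bile acid synthesis in the adult, fell as well. It had 1.99 and 1.86 FPKM in DMSO and 0.895 and 1.08 FPKM in RDF, behind which stand 34.8, 37.0, 19.9 and 22 estimated fragments. Both RDF values were below both DMSO values. The mean went from 1.93 ± 0.0926 to 0.99 ± 0.133 FPKM (SD, n = 2 each), a ratio of 0.514, with a log2 fold change of -0.56 ± 0.115 (SE, limma adjusted p = 0.0215). Leaving out DMSO replicate 1, RDF replicate 1 or RDF replicate 2 gave an adjusted p of 0.0614, 0.109 and 0.0801. Fgf15 lies on chromosome 7 from 152082437 to 152086858 on the plus strand, and its start overlaps Gm17685, a long non-coding RNA on the other strand. The library kit keeps the strand, but whether the authors' counting used it is not stated.

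Fgf8, which shares its subfamily with Fgf17, had lower values in RDF too but did not pass the test. Its values were 1.85 and 1.31 FPKM in DMSO and 0.594 and 0.94 FPKM in RDF, with 8.54 to 20.9 estimated fragments. The groups did not overlap, but the replicates of each condition were far apart. The means were 1.58 ± 0.382 and 0.767 ± 0.245 FPKM (SD, n = 2 each), a ratio of 0.485, with a log2 fold change of -0.55 (95% interval -0.94 to -0.15, adjusted p = 0.0602 from limma). Without DMSO replicate 2 the adjusted p was 0.0424. The transcript used here for Fgf8 lies on chromosome 19 from 45811308 to 45817363 on the minus strand, and 6 transcripts are annotated.

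The other 2 ligands were hardly expressed. Fgf10, a mesenchymal ligand best known from the budding of lung and limb, had 0.569 and 0.552 FPKM in DMSO and 0.248 and 0.121 FPKM in RDF, from 22.6, 25.0, 12.5 and 5.58 estimated fragments. Both RDF values were below both DMSO values, a ratio of means of 0.329. It was below the filter, and when all genes above 0 were tested its adjusted p was 0.048 from limma, with a log2 fold change of -0.4. The transcript of Fgf10 lies on chromosome 13 from 119503506 to 119580922, and Gm16263 on the other strand overlaps its start. Fgf5 had 0.0894 and 0.0376 FPKM in DMSO and 0.0346 and 0.038 FPKM in RDF, and the groups overlapped. Only 2.16, 1.03, 1.06 and 1.07 fragments are estimated behind these values of Fgf5, so a change was not detectable at this depth. Of the distinct stretches of 50 bases in their coding transcripts, 16 of 4042 of Fgf10 are shared with 97 other genes. For Fgf5, 19 of 2452 are shared with 5 other genes. The study lists Fgf5 among the primed genes that were lower with RDF in its RNA-seq. By Q-PCR of primed markers, Fgf5 among them, it reports lower levels with RDF than in mock-treated cells. It also reports more methylation of the Fgf5 promoter with RDF in another line.

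Because the labels name feeder fibroblasts, which express Fgf10 and FGF receptors, and the methods do not list RNA-seq among the assays done on them, fibroblast markers were looked at beside the members. Of the 14 markers, none was at 0 in all samples and 11 passed the filter, of which 3 rose and 5 fell. The share called was 72.7%, against 21.6% of all tested genes. Prrx1, counted as up, averaged 0.648 FPKM in DMSO and passed the filter only through its RDF values. Postn, counted as down, averaged 0.69 FPKM in RDF and passed only through its DMSO values. The counts thus describe the markers and are not a test of them. Col1a1, a collagen chain abundant in fibroblasts, had 10.5 and 10.4 FPKM in DMSO and 2.62 and 2.17 FPKM in RDF. Dcn, a matrix proteoglycan of the same cells, went the other way, from 1.74 and 1.4 FPKM to 6.56 and 7.51 FPKM. The summed level of the 14 markers was 53.2 and 51.6 FPKM in DMSO and 39.4 and 41.0 FPKM in RDF. Their part in the values of Fgf10 and of the receptors was not tested, and in bulk samples fewer cells of a type and less RNA per cell cannot be told apart.

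**Figure D2:**
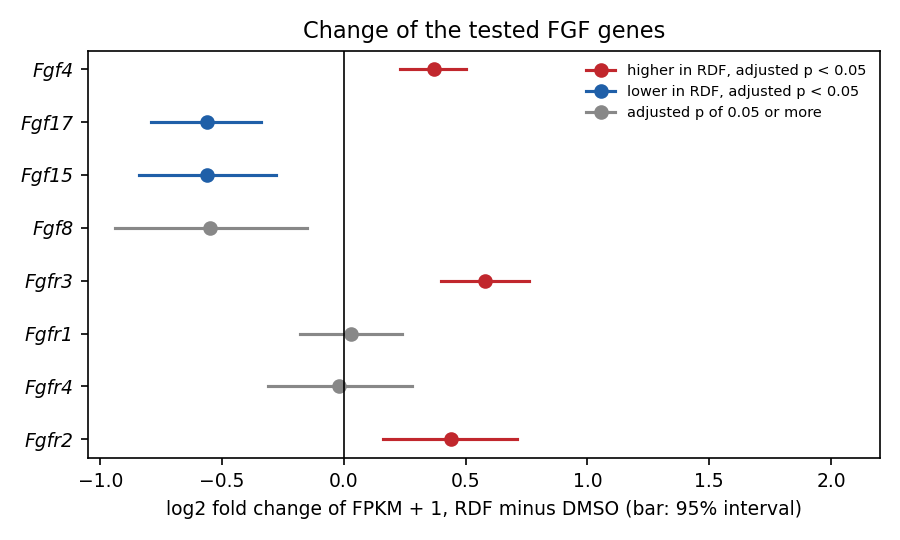
Log2 fold change of the 8 tested FGF genes, RDF minus DMSO on the log2(FPKM + 1) scale, with points for the estimate and bars for the 95% interval of the limma fit. Fgf4, Fgfr3 and Fgfr2 lie to the right of 0 and Fgf17 and Fgf15 to the left with an adjusted p under 0.05, and the intervals of Fgfr1 and Fgfr4 include 0.

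Of the receptors, Fgfr3 was the most abundant, and it rose. It lies on chromosome 5 from 34064373 to 34079716 on the plus strand, with 18 exons in its longest transcript. It had 13.4 and 15.0 FPKM in DMSO and 21.9 and 21.6 FPKM in RDF, with 546 to 1140 estimated fragments. Both RDF samples lay well above both DMSO samples. The mean rose from 14.2 ± 1.16 to 21.8 ± 0.172 FPKM (SD, n = 2 each), a ratio of 1.53, with a log2 fold change of 0.58 ± 0.075 (SE, limma adjusted p = 0.00558). Without RDF replicate 1 the adjusted p of Fgfr3 was 0.0559 and without RDF replicate 2 it was 0.0576.

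Fgfr1, the receptor to which most of the Fgf4 response of ES cells is ascribed, did not pass the test. It had 9.95 and 9.96 FPKM in DMSO and 9.52 and 10.9 FPKM in RDF, from 479 to 611 estimated fragments. The RDF samples lay on either side of the DMSO samples. The log2 fold change was 0.03 with a 95% interval from -0.18 to 0.24 (adjusted p = 0.807 from limma), an interval that lies below the estimate for Fgfr3. The study also measured Fgfr1 by Q-PCR with DMSO and RDF, in HG165 and in other lines, and its text does not state the outcome for this gene. The transcript of Fgfr1 used here lies on chromosome 8 from 26629264 to 26686186 on the plus strand, and a non-coding RNA, Gm16159, overlaps it on the other strand.

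Fgfr2, which pairs with Fgf4 in the primitive endoderm and trophoblast of the embryo, was the least abundant receptor and rose. It had 0.784 and 0.731 FPKM in DMSO and 1.42 and 1.35 FPKM in RDF, with 32, 34.0, 73.6 and 63.6 estimated fragments. The groups did not overlap, and each pair of replicates was close. The mean rose from 0.758 ± 0.0376 to 1.38 ± 0.0506 FPKM (SD, n = 2 each), a ratio of 1.82, with a log2 fold change of 0.44 ± 0.113 (SE, limma adjusted p = 0.0409). This call rested on all 4 samples, as the adjusted p was 0.0813 without DMSO replicate 1, 0.106 without DMSO replicate 2, 0.157 without RDF replicate 1 and 0.142 without RDF replicate 2. Fgfr2 lies on chromosome 7 from 137306026 to 137409759 on the minus strand in its longest coding transcript. It has 29 annotated transcripts, and 266 of the 6295 distinct stretches of 50 bases in its coding transcripts are shared with 1 other gene, Ctbp2. The epithelial and mesenchymal splice forms of Fgfr2, which differ in the ligands they bind, are 1 value in these data.

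Fgfr4 did not pass the test either. It had 4.14 and 3.22 FPKM in DMSO and 3.63 and 3.59 FPKM in RDF, with 118 to 148 estimated fragments, and the RDF samples lay between the DMSO samples. Its log2 fold change was -0.02 with a 95% interval from -0.31 to 0.28 (adjusted p = 0.936 from limma). Fgfr4 lies on chromosome 13 from 55254001 to 55270120 on the plus strand. Although the 4 receptors are paralogs, their annotated transcripts shared no stretch of 50 bases with each other, and neither did those of Fgf8 and Fgf17.

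The make-up of the receptors shifted toward Fgfr3. Fgfr3 made up 47.4% and 52.0% of the summed FPKM of the 4 receptors in DMSO and 60.0% and 57.7% in RDF. The share of Fgfr1 was 35.2% and 34.4% in DMSO and 26.1% and 29.2% in RDF, and that of Fgfr2 was 2.77% and 2.52% in DMSO and 3.89% and 3.59% in RDF. Fgfr4 made up 14.7% and 11.1% in DMSO and 9.95% and 9.56% in RDF. In each of the 4 genes both RDF shares lay on the same side of both DMSO shares. The shares are parts of the same sum and depend on each other, so these are not 4 separate changes. By level, the samples of Fgfr1 and of Fgfr4 overlapped between conditions, with log2 fold changes of 0.03 and -0.02. Fgfr3 had 1.35 and 1.51 times the FPKM of Fgfr1 in DMSO and 2.3 and 1.98 times in RDF. The summed receptors went from 28.6 ± 0.48 to 37.0 ± 0.743 FPKM (SD, n = 2 each). Shares and sums are given without a test, since the smallest two-sided p of an exact permutation test at this size is 0.333.

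Among the ligands Fgf4 took a larger share. It made up 78.1% and 76.8% of the summed FPKM of the 6 ligands in DMSO and 88.5% and 88.2% in RDF. The summed FPKM of the 5 ligands other than Fgf4 was 12.9 and 13.4 in DMSO and 7.46 and 7.98 in RDF, a ratio of means of 0.589, while that of all 6 was 58.8 and 57.7 in DMSO and 64.6 and 67.8 in RDF. The level of Fgf4 relative to its receptors was alike in both conditions. The ratio of Fgf4 to the summed receptors was 1.62 and 1.53 in DMSO and 1.57 and 1.59 in RDF.

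**Figure D3:**
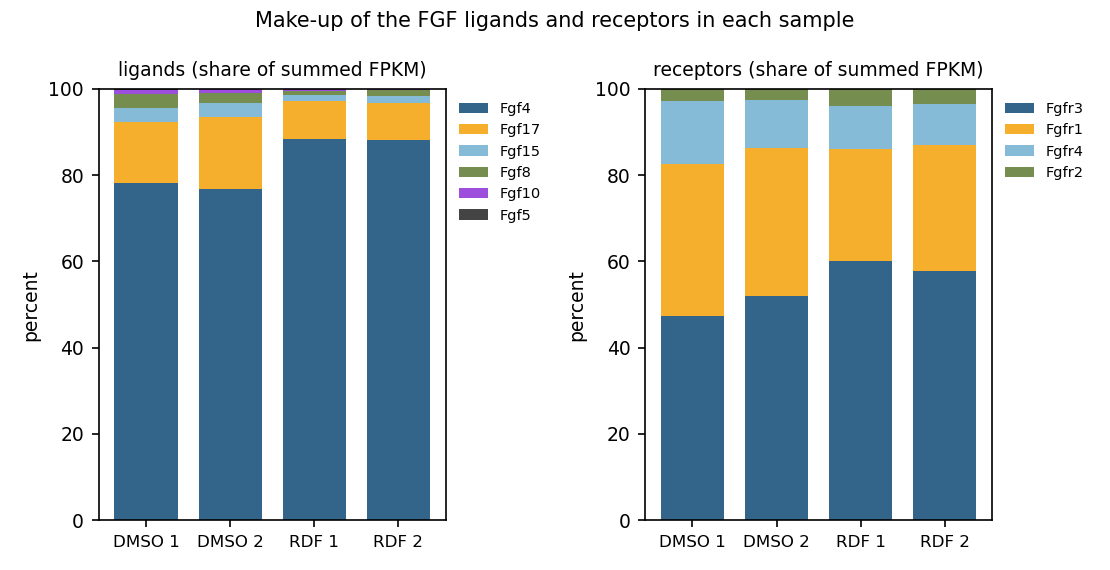
Share of each gene, in percent, in the summed FPKM of the 6 ligands and of the 4 receptors, with 1 bar for each sample. Fgf4 goes from 78.1% and 76.8% of the ligands in DMSO to 88.5% and 88.2% in RDF, and Fgfr3 from 47.4% and 52.0% of the receptors to 60.0% and 57.7%.

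In DMSO the order of the members by level was Fgf4, Fgfr3, Fgfr1, Fgf17, Fgfr4, Fgf15, Fgf8, Fgfr2, Fgf10 and Fgf5, and the samples of each neighbouring pair in this order did not overlap. For Fgf15 and Fgf8 the nearest DMSO values were 1.86 and 1.85 FPKM, so the order of this pair is not settled. In RDF the first 5 places were the same, Fgfr2 came before Fgf15 and Fgf8, and the samples of Fgf15 and Fgf8 overlapped, so that these 2 could not be ordered. By its pattern over the 4 samples, Fgf4 was nearest to St3gal5, Ulk1 and Sun1 among all tested genes, at distances of 0.00981, 0.0185 and 0.0194 on the log2 scale after centring. The genes nearest to Fgfr1 were Ahsa2, Wdtc1 and Pias3, at 0.00708, 0.015 and 0.0181. With 4 samples such nearness says little more than that the genes had a like change.

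Fgf4 and Fgf15 are close neighbours in the genome and changed in opposite directions. Fgf3, Fgf4 and Fgf15 lie in this order on the plus strand of chromosome 7, and the start of Fgf4 is 23303 bases from that of Fgf3 and 35146 bases from that of Fgf15. Fgf3, a ligand of the inner ear and tail bud, had 2.09 and 1.8 FPKM in DMSO and 2.32 and 2.83 FPKM in RDF. Its samples did not overlap, and its log2 fold change of 0.28 did not pass the test (adjusted p = 0.15 from limma). Ccnd1, which encodes cyclin D1 and lies beyond Fgf15 from 152115836 to 152125774, had 20.6 and 22.6 FPKM in DMSO and 18.8 and 19.7 FPKM in RDF, with an adjusted p of 0.163 from limma.

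The rest of the family was little expressed. Of the 22 FGF ligands and their intracellular homologues, 9 had a mean of at least 1 FPKM and 2 were at 0 in all samples. Of the 5 tested genes that are not members, 1 fell, Fgf13, an intracellular homologue that does not act through Fgf receptors, from 5.14 and 5.12 FPKM to 3.04 and 3.14 FPKM (log2 fold change -0.58, adjusted p = 0.00846 from limma). Fgf2, the ligand added to cultures of primed cells, was at 0 in 3 samples and at 0.294 FPKM in RDF replicate 1. Fgf9 was at most 0.0586 FPKM in any sample. Fgf4 made up 61.5% and 60.5% of the summed FPKM of the 22 in DMSO and 71.8% and 74.1% in RDF.

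Lists of pathway genes, 6 in all, were set beside the members, 99 genes other than the 10. Of the 77 that were tested, 23 rose and 6 fell, 37.7% against the 21.6% of all tested genes, and their median log2 fold change was 0.15 against 0.026 over all tested genes. Of the 29 calls 13 were among ERK feedback and target genes, where 81.2% of the tested genes were called. In the other lists the share called was between 15.4% and 42.9%. All 6 lists were chosen with earlier results of these data known, so these counts are not independent evidence. Flrt3 and Fosl1, both counted as up, averaged under 1 FPKM in DMSO and passed the filter only through their RDF values. Without RDF replicate 1, 9 of the pathway genes rose and 1 fell, and without RDF replicate 2, 9 rose and 2 fell.

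Co-receptors and binding proteins moved in both directions, with 3 of 14 tested genes up, 3 down and 8 not passing. The share called was 42.9%, against 21.6% of all tested genes. Gpc3, a glypican that carries heparan sulfate, had 138 FPKM in both DMSO samples and 82.8 and 80.8 FPKM in RDF (log2 fold change -0.75, adjusted p = 0.000995 from limma). Fgfbp3, which frees FGFs from the matrix, changed by -0.7 (adjusted p = 0.00878). Flrt3, a membrane protein that binds Fgf receptors, rose from 0.905 and 1.08 FPKM to 2.19 and 2.2 FPKM (log2 fold change 0.68, adjusted p = 0.0108), and Gpc1 rose by 0.43 (adjusted p = 0.0177). Flrt3 averaged 0.992 FPKM in DMSO and passed the filter only through its RDF values. Fgfrl1, a receptor without a kinase domain, had a log2 fold change of 0.16 (adjusted p = 0.265 from limma). Klb, the co-receptor that Fgf15 needs, was at most 0.143 FPKM in any sample.

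Of the 14 tested genes of heparan sulfate synthesis and editing, 4 rose and 10 did not pass, a share called of 28.6% against 21.6% of all tested genes. Hs6st1, which adds 6-O-sulfate to the chain, rose from 10.8 and 9.19 FPKM to 18.7 and 19.9 FPKM (log2 fold change 0.89, adjusted p = 0.00311 from limma). Sulf2, which takes 6-O-sulfate off outside the cell, rose too, from 16.1 and 16.2 FPKM to 20.1 and 21.1 FPKM (0.33, adjusted p = 0.0167). Hs2st1, the 2-O-sulfotransferase, rose by 0.35 (adjusted p = 0.0394). The list's median was 0.14.

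Few adaptors and members of the kinase cascade passed the test. Among 13 tested receptor-proximal adaptors 2 rose, Frs2, the docking protein of Fgf receptors, from 6.34 and 6.3 FPKM to 8.57 and 9.26 FPKM (log2 fold change 0.44, adjusted p = 0.0148 from limma), and Sos1, an exchange factor of RAS, by 0.34 (adjusted p = 0.0443). Grb2 (0.26, adjusted p = 0.0727) and the phosphatase Ptpn11 (-0.04, adjusted p = 0.668) did not pass. Of the 15 genes of the RAS-ERK cascade 3 rose, among them Ksr1, a scaffold (0.46, adjusted p = 0.0411), and Nf1, which turns RAS off (0.43, adjusted p = 0.0334). The log2 fold changes of the kinases Map2k1, Map2k2 and Mapk3 were -0.01, -0.02 and -0.2, and none of these 3 passed. The share called was 15.4% of the adaptors and 20.0% of the cascade, near the 21.6% of all tested genes.

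Feedback and target genes of ERK had the largest share of calls among the 6 lists, with 11 of 16 tested genes up, 2 down and a median log2 fold change of 0.61. Like the other lists, this list was chosen with earlier results of these data known, so its count is not independent evidence. Fosl1, counted as up, averaged 0.695 FPKM in DMSO and 1.58 FPKM in RDF and passed the filter only through its RDF values. Spry2, an inhibitor that ERK induces, had 20.1 and 20.4 FPKM in DMSO and 44.5 and 45.5 FPKM in RDF (log2 fold change 1.11, adjusted p = 0.000429 from limma). Dusp6, a phosphatase of ERK, went from 11.7 and 12 FPKM to 25.5 and 27.2 FPKM (1.09, adjusted p = 0.000774), and Spry4 rose by 1.0 (adjusted p = 0.00215). Egr1, an early response gene that cAMP also induces, had the largest rise of the list, from 19.0 and 18.5 FPKM to 74.4 and 84.8 FPKM (2.03, adjusted p = 0.000174). The Ets factors Etv4 and Etv5, both targets of FGF signalling, moved in opposite directions, with log2 fold changes of 0.48 (adjusted p = 0.00654) and -0.25 (adjusted p = 0.0304). Il17rd (Sef), an inhibitor of Fgf receptors, fell from 4.32 and 5.03 FPKM to 2.06 and 2.57 FPKM (-0.78, adjusted p = 0.0096). Whether these values follow from FGF signalling was not tested.

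**Figure D4:**
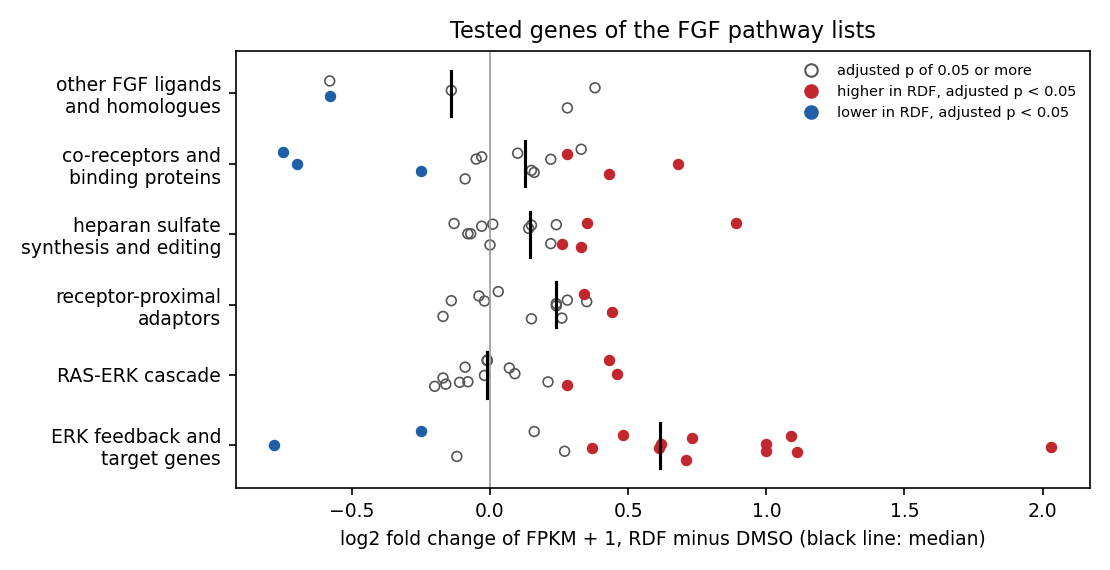
Log2 fold change, RDF minus DMSO on the log2(FPKM + 1) scale, of each tested gene of 6 FGF pathway lists, filled where the adjusted p was under 0.05, with a black line at the median of a list. The median lies at 0.61 for ERK feedback and target genes and between -0.14 and 0.24 for the other lists.

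Markers of the cell types in which these FGF genes are used were also listed. Of 4 tested primitive endoderm markers 1 rose, Gata6, from 2.83 and 1.45 FPKM to 4.36 and 4.19 FPKM (log2 fold change 0.78, adjusted p = 0.0428 from limma), and the summed level of the 10 listed was 23.8 and 22.4 FPKM in DMSO and 27.9 and 31.0 FPKM in RDF. Of 6 tested trophoblast markers 4 rose, Gata3, Tfap2c, Hand1 and Ascl2. The summed levels of those listed were 102 and 97.3 FPKM in DMSO and 140 and 141 FPKM in RDF, within which Tfap2c alone went from a mean of 26.1 to 49.5 FPKM. Gata3 averaged 0.814 FPKM in DMSO and passed the filter only through its RDF values. Of 7 tested epiblast markers 1 rose and 2 fell, and of 5 tested neural markers 1 fell, Tubb3. Of the 10 primitive streak markers Eomes alone passed the filter, and it did not pass the test (adjusted p = 0.257 from limma). T, the streak factor Brachyury, had 1.63 and 1.27 FPKM in DMSO and 0.333 and 0.401 FPKM in RDF, below the filter, and its samples did not overlap. When all genes above 0 were tested, its log2 fold change was -0.84 (adjusted p = 0.025 from limma). Of the 10 ES cell markers 5 rose and 3 fell. Against 21.6% of all tested genes, the share called was 80.0% of the tested ES cell markers and 66.7% of the trophoblast markers. It was 42.9% of the epiblast, 25.0% of the primitive endoderm and 20.0% of the neural markers. The part of these cell types in the values of the FGF genes was not tested.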

How the data were processed

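RNA-seq values of 4 samples, 2 of haESCs treated with DMSO and 2 treated with RDF, were analysed as deposited. The authors made the libraries with a stranded mRNA kit, starting from 150 ng of purified RNA. According to the submitters' processing notes, reads were handled with TopHat2 2.0.14, Bowtie2 2.1.0 and Cufflinks 2.2.1 on mm9, and the authors deposited FPKM for 23235 gene symbols, 1 file a sample. How fragments that match several genes were divided is not stated. FPKM hold no counts, so the count of fragments was estimated from the steps of low values of genes with 1 annotated transcript of at least 1500 bases, by transcript length from GENCODE vM1 on NCBIM37. This covers counting precision only.

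For genes averaging 1 FPKM or more, limma 3.58.1 (R 4.3.3) was fitted to log2(FPKM + 1) of all 4 samples, using lmFit, then eBayes with trend set, no block and Benjamini-Hochberg adjustment. The fit and the depth estimate were tested on simulated data. Samples were grouped by their titles. Alternatives were a pseudocount of 0.1, no filter, a filter of 5 FPKM, median-ratio scaling, no trend, the replicate number as a block, and each sample left out. Replicate error is the SD of 2 samples.

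The members, the pathway lists and the marker lists (ES cell, feeder fibroblast, primitive endoderm, epiblast, primitive streak, neural and trophoblast) were chosen with earlier results of these data known. Genes named were all members, a fixed set of known FGF pathway genes, up to 4 genes of each pathway list with the largest change past the threshold and at most 3 in a direction, and the 3 genes nearest to Fgf4 and to Fgfr1 by Euclidean distance. Members' neighbours and single markers (Sox2, Pou5f1, Ccnd1, Col1a1, Dcn, Gata6, Tubb3, Eomes and T) were named after their values were seen. So were Fosl1, Prrx1, Postn, Gata3, Tfap2c, Hand1 and Ascl2. Promoter windows came from a RefSeq table and were matched to NCBIM37. Protein sequences were not used here. Some genes that the naming rule covers are not reported here.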

Additional observations from a re-analysis of the deposited data

How the results depend on the processing

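The directions of Fgf4, Fgf8, Fgf15, Fgf17, Fgfr2 and Fgfr3 held under each alternative that could be computed for them. Fgf8, Fgf15, Fgfr2 and Fgfr4 were below the filter of 5 FPKM. Over the other alternatives without a left-out sample, the log2 fold change lay between 0.33 and 0.37 for Fgf4, 0.55 and 0.61 for Fgfr3, 0.42 and 0.79 for Fgfr2, -0.63 and -0.56 for Fgf17 and -0.9 and -0.56 for Fgf15. Neither Fgfr1 nor Fgfr4 was called under any of them, and their estimates changed sign without RDF replicate 2 (Fgfr1, -0.06 to 0.12 over the left-out samples) and without DMSO replicate 1 (Fgfr4, -0.16 to 0.13). With 1 sample left out, 253 to 1121 genes rose and 195 to 731 fell, 0 to 2 members rose and 0 to 3 fell, and 9 to 18 genes of the pathway lists rose and 1 to 5 fell. The counts of 0 members came without RDF replicate 1 or RDF replicate 2, where limma gave 5 and 6 members at an unadjusted p under 0.05, and the cause was not tested. Without a filter 942 genes rose and 606 fell, and with a filter of 5 FPKM 1 member and 3 pathway genes fell, as fewer of them were tested. By summed fragments in place of FPKM, Fgfr1 made up 39.7% of the receptors in DMSO and 31.7% in RDF, Fgfr4 9.8% and 7.46%, and Fgfr3 57.2% in RDF.

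The samples carry replicate numbers, but nothing says that these mark pairs. After removal of the condition means, samples sharing a number correlated across genes, which are no independent replicates, at r = 0.134 (Pearson) and rho = 0.114 (Spearman). With the replicate number as a block 1651 genes rose and 1066 fell, 2 members rose and 2 fell, and 24 pathway genes rose and 7 fell. The adjusted p of Fgfr2 was then 0.0536. At this depth Fgf5 and Fgf10 rest on few fragments.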
